A study of Mus musculus with 12 samples.

Results

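The subcortical maternal complex is an assembly of proteins that the growing oocyte makes and stores beneath its membrane. Its genes were followed here as 7 rows, chosen by symbol (Nlrp5, Ooep, Tle6, Khdc3, Padi6, Zbed3 and Nlrp4f), of a count table that holds 56691 mouse genes. All 7 were found, and all 7 passed the filter on low counts in every comparison. The table comes from RNA sequencing of C57BL/6 oocytes in 12 libraries. WT and KO oocytes were sampled at 3 points of meiosis, with 2 libraries at each. WT stands for wild type and KO for a whole-body Alkbh5-/- knockout made with CRISPR-Cas9 by removing exon 1, so every tissue of the KO animal lacked the RNA demethylase ALKBH5, not the oocyte alone. The stages were the germinal vesicle (GV) stage before culture, germinal vesicle breakdown (GVBD) and metaphase II (MII), and in both genotypes the donors were juvenile females primed with gonadotropin (PMSG). Each library was made from a small pool of oocytes. By the study's account most KO oocytes did not mature in culture and sampling went by culture time, so the KO libraries labelled GVBD and MII may hold oocytes of an earlier stage. Genotype and stage cannot be told apart in those libraries. On GRCm38 the protein-coding members lie at chr7:23385889-23441922 (Nlrp5, + strand), chr9:78376109-78378725 (Ooep, − strand), chr10:81590904-81601073 (Tle6, − strand), chr9:73101836-73104438 (Khdc3, + strand), chr4:140727355-140742643 (Padi6, − strand), chr13:95323612-95337841 (Zbed3, + strand) and chr13:65177111-65205977 (Nlrp4f, − strand).

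NLRP5, OOEP, TLE6 and KHDC3 form the core of the complex, and ZBED3, NLRP4F and PADI6 are reported to bind it or to depend on it. The complex belongs to the cytoplasmic lattices, fibrous stores of the egg, and mothers that lack its parts produce embryos that stop dividing early. A fully grown oocyte no longer transcribes, so during maturation a maternal transcript can be kept, lengthened or shortened at its poly(A) tail, or degraded. A cytoplasmic polyadenylation element in the 3′ untranslated region (UTR) is the best known signal for tail lengthening.

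The transcripts differ in sequence features that bear on such control. They were read from 1 principal GENCODE M21 transcript a gene (GRCm38), on the RNA strand only and written with T for U, beside 10576 protein-coding genes averaging 50 counts or more. The polyadenylation element was searched as TTTTAT or TTTTAAT in the 3′ UTR after the expression values were known. It was present in Zbed3, with 5 matches, and in Nlrp4f, with 2, and these letters were not in the annotated 3′ UTR of the other 5. Of the 10576 genes, 61.0% held it. Both Nlrp4f matches and 3 of those in Zbed3 are shown because these 2 members took the highest values in the WT comparison of MII with GV below. Capitals mark the element.
Zbed3, chr13:95337629-95337658, + strand: cgtaaatgccttTTTTATgagacgtttgaa
Zbed3, chr13:95337667-95337696, + strand: ctgaccattataTTTTATaaaaaccacata
Zbed3, chr13:95337812-95337841, + strand: tttttttttaataaacTTTTATttatctgc
Nlrp4f, chr13:65177211-65177240, − strand: tttttggggaaaTTTTATttggctatgcat
Nlrp4f, chr13:65177128-65177157, − strand: tgctgttttgtgTTTTATattaaagaatag

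The last Zbed3 element began 14 bases from the annotated end and lay just after the polyadenylation signal AATAAA, which a TTTTAAT match overlaps, while the last Nlrp4f element began 29 bases from the end and was followed by the variant ATTAAA. The annotated 3′ UTR was 109 bases long in Nlrp5, 130 in Tle6, 221 in Padi6 and 246 in Khdc3, all short beside the median of 978 bases over the 10576 genes. It was 582 bases in Nlrp4f, 1085 in Zbed3 and 1446 in Ooep.

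GGACT, a common form of the motif at which N6-methyladenosine is placed, was counted along the whole transcript because ALKBH5 removes this mark. Nlrp5 held 7 matches, Nlrp4f 5, Tle6 and Padi6 4 each and Ooep 1, while Khdc3 and Zbed3 held 0. At least 1 match was present in 91.0% of the 10576 genes. Nlrp4f was the only member with a match in the 3′ UTR, which is not shown. In 57.8% of the 10576 genes the 3′ UTR held at least 1. The Ooep match and 3 of those in Nlrp4f, each before the stop codon, are shown with GGACT in capitals, as the most abundant member and the member that was lower in KO at every stage.
Ooep, chr9:78378082-78378111, − strand: cctgctgacagtGGACTccgtcaactctgg
Nlrp4f, chr13:65199348-65199377, − strand: catgaagtttaaGGACTttctcatacagga
Nlrp4f, chr13:65194596-65194625, − strand: ctgagggcatgtGGACTgacacatttgtgt
Nlrp4f, chr13:65185083-65185112, − strand: tgagcaatgttgGGACTacctttctgaagt

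A match is a run of letters and not a measured methylation site. Methylation itself was not analysed here.

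Total counts ranged from 28557742 to 40247810 a library, of which 221927 to 838409 were counts of added ERCC RNAs, synthetic spike-ins given in equal amount to each tube. Endogenous counts per ERCC count ran from 47.0 to 128 and were lower in the second library of every group. Alkbh5 had 5355 to 10181 counts in WT and 54 to 143 in KO libraries, as the labels state. The 8 oocyte markers summed to between 28824 and 47514 TPM (a share of the library per transcript length) in every library. The 13 granulosa and cumulus markers summed to 15.1 to 37.4 TPM, and no marker of either list was at 0 throughout. The 6 blood markers, mostly globins, ranged from 2.93 to 13515 TPM between libraries, with low sums in both KO GVBD libraries (11.2 and 20.2 TPM) and high sums in both WT GVBD libraries (7315 and 8018 TPM). Their part in the results was not tested. In the values below, a spike-in scaled count is a count divided by the library's ERCC total relative to the mean ERCC total, and it follows RNA amount per pool. Fewer oocytes in a pool and less RNA per oocyte cannot be told apart on this scale.

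Transcripts of all 7 genes were abundant. Together they made up 0.757% to 1.43% of the endogenous counts of a library. In WT GV oocytes Ooep, the KH-domain protein of the core, stood far above the others at 7061 ± 1578 TPM (SD, n = 2) and ranked 12 of 52073 genes with a length. Padi6, a catalytically atypical peptidylarginine deiminase needed for the lattices, followed at 736 ± 18.4 TPM. Nlrp4f had 671 ± 3.52 TPM, Zbed3, a BED-type zinc finger protein, 517 ± 45.8 TPM and Nlrp5, the leucine-rich repeat protein also called MATER, 399 ± 58.3 TPM. The libraries of each of these 5 genes did not overlap with those of its neighbour in this order. Khdc3, the KH-domain protein FILIA, had 331 ± 276 TPM and Tle6, a WD-repeat protein of the Groucho family, 222 ± 29.2 TPM. The 2 Khdc3 libraries, at 526 and 136 TPM, overlapped with Zbed3, Nlrp5 and Tle6, so the place of Khdc3 in the order is not fixed by these data. Ooep alone gave between 38.7% and 65.6% of the members' counts.

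**Figure D1:**
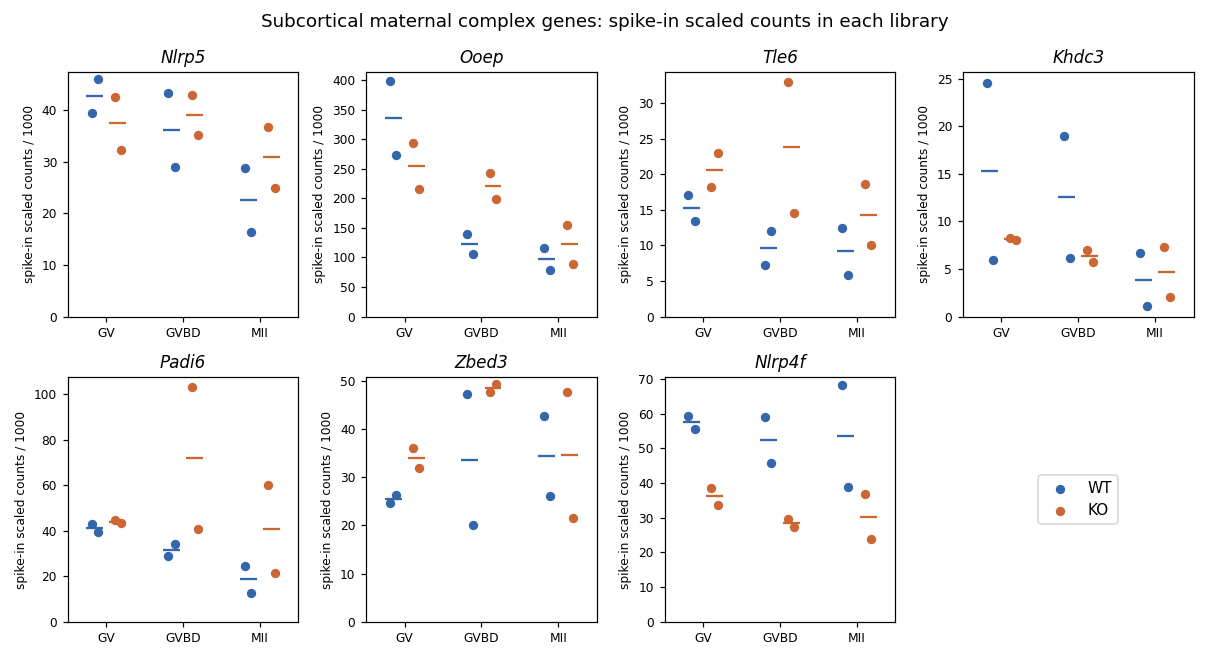
Spike-in scaled counts (linear axis from 0) of the 7 genes at GV, GVBD and MII, with 1 point a library and a bar at the mean of the 2 libraries of a group. The Nlrp4f points of KO lie below those of WT at each stage, and the Khdc3 points of WT lie far apart within each stage.

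The first question was whether loss of ALKBH5 altered these transcripts at a given stage. At the threshold used, an adjusted p under 0.05 (edgeR quasi-likelihood test, Benjamini-Hochberg over all tested genes) with at least a 2-fold change, 0 of 7 members differed between KO and WT at GV, GVBD or MII, and 0 of 7 when the genotypes were compared over all stages. The share of all tested genes that passed was 0.0977% for GV, 2.54% for GVBD, 0.803% for MII and 1.26% over all stages. An unadjusted p under 0.05 was reached by 2 members in GV, 2 in GVBD, none (0) in MII and 3 over all stages. The corresponding shares of all genes were 17.9%, 14.9%, 7.32% and 18.8%. DESeq2 also called 0 members in each of these 4 comparisons, though its adjusted p for Nlrp4f was 0.00100 at GV and 0.00672 over all stages, with changes under the 2-fold minimum.

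Nlrp4f was the member whose genotypes separated most regularly. It encodes a NOD-like receptor of the oocyte that binds the complex. Before maturation its spike-in scaled counts were 59327 and 55650 in WT and 38623 and 33616 in KO. GVBD libraries had 59074 and 45781 in WT and 29641 and 27287 in KO. MII libraries had 68266 and 38861 in WT and 36743 and 23799 in KO. Both KO libraries were below both WT libraries at every stage. Of the 16622 genes tested at all 3 stages, 1.72% were lower without overlap at each of them. Within a single stage 9.69% of genes were lower without overlap for GV, 17.9% for GVBD and 10.3% for MII. The GV log2 fold change of Nlrp4f was -0.67 ± 0.16 (SE, adjusted p = 0.160). For GVBD it was -0.88 ± 0.49 (adjusted p = 0.417), and for MII -0.82 ± 0.62 (adjusted p = 1.0).

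Over all stages the Nlrp4f log2 fold change was -0.79 ± 0.22 with an adjusted p of 0.0855, and the median of all genes was 0.29. The spike-in scale thus set most genes slightly higher in KO. When libraries were scaled by TMM, which takes most genes as equal, the difference was -1.03 ± 0.13 with an adjusted p of 0.00204 and passed the threshold, as 2.73% of genes did on that scale. All genes called over the stages divided into 198 higher and 80 lower with spike-ins and into 253 higher and 347 lower with TMM. The share of the library showed the same order with less spread. GV libraries had 674 and 669 TPM in WT and 376 and 370 TPM in KO. GVBD libraries had 639 and 741 TPM in WT and 309 and 354 TPM in KO, and MII libraries 1342 and 1161 TPM against 565 and 557 TPM.

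Nlrp4f belongs to a gene family of which Nlrp4a, Nlrp4b and Nlrp4e are also made in the oocyte. None of these 3 genes was below WT in both KO libraries at GV. Nlrp4a had 410 and 399 TPM in WT GV and 440 and 401 TPM in KO GV, Nlrp4b had 130 and 130 against 139 and 123.5 TPM, and Nlrp4e had 40.5 and 37.9 against 56.4 and 41.8 TPM. At GVBD the shares of Nlrp4b and Nlrp4e were lower in KO without overlap, while those of Nlrp4a overlapped. Nlrp4b had 149 and 180 TPM in WT GVBD and 142 and 132 TPM in KO GVBD. Nlrp4e had 53.5 and 61.1 against 38.2 and 48.7 TPM. At MII the shares were lower in KO without overlap for all 3, with Nlrp4a at 920 and 820.5 TPM in WT and 644 and 664 TPM in KO. Over all genes, overlap was counted in spike-in scaled counts only. How common such a separation in TPM was among all genes is therefore not known here. Over all stages their spike-in log2 fold changes were 0.05 ± 0.21 for Nlrp4a, 0.09 ± 0.22 for Nlrp4b and 0.11 ± 0.22 for Nlrp4e, with adjusted p of 0.925, 0.870 and 0.825. On the TMM scale they were -0.20, -0.17 and -0.13 with adjusted p of 0.463, 0.502 and 0.717. The difference between Nlrp4f and these genes was not tested.

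**Figure D2:**
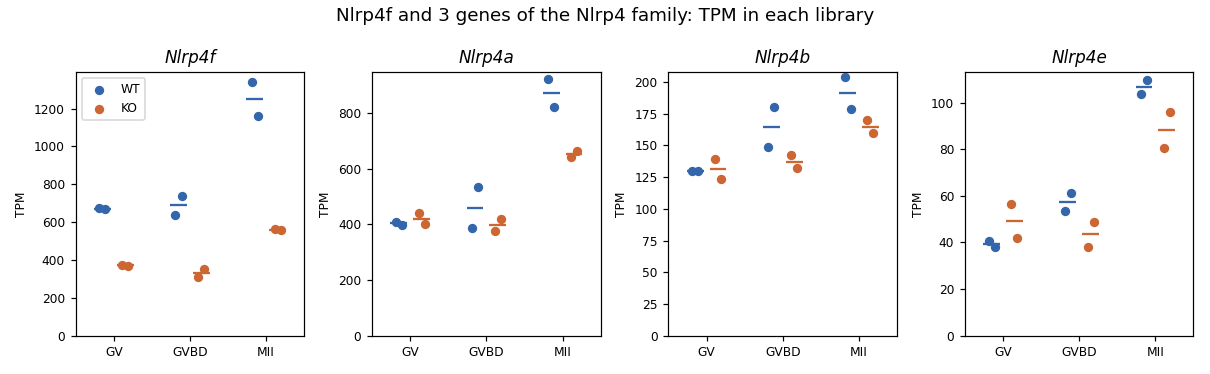
Levels in TPM (linear axis from 0) of Nlrp4f and of Nlrp4a, Nlrp4b and Nlrp4e at GV, GVBD and MII, with 1 point a library and a bar at the mean of 2. The WT and KO points of Nlrp4f separate at every stage, from 674 and 669 against 376 and 370 TPM at GV onwards, while those of the other genes overlap or nearly meet at GV. At MII the KO points of the other genes also lie below those of WT, as do those of Nlrp4b and Nlrp4e at GVBD.

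Tle6 and Padi6 had higher values in KO at GVBD. Tle6 scaled counts at GVBD were 7219 and 12084 in WT and 33012 and 14601 in KO. Padi6 scaled counts at GVBD were 29012 and 34225 in WT and 103072 and 40661 in KO. For both genes the KO libraries lay above the WT libraries, and the first KO library far exceeded the second. The log2 fold change was 1.30 ± 0.54 for Tle6 (adjusted p = 0.244) and 1.18 ± 0.53 for Padi6 (adjusted p = 0.288). Without the first KO library the values were 0.60 and 0.36.

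Ooep and Zbed3 were also higher without overlap in KO at GVBD, which made 4 of 7 members against 30.3% of all genes. Ooep scaled counts were 139139 and 105228 in WT and 243209 and 198082 in KO, a log2 fold change of 0.85 ± 0.47 (adjusted p = 0.418). Zbed3 scaled counts were 47239 and 19989 in WT and 47650 and 49263 in KO, a log2 fold change of 0.53 ± 0.52 (adjusted p = 0.700). The Zbed3 groups thus met almost at the same value, and the log2 fold change was 1.28 without the first WT GVBD library and 0.037 without the second. At GV, Ooep overlapped between the genotypes in scaled counts, with a log2 fold change of -0.40 ± 0.24 (adjusted p = 0.442). With TMM scaling it was -0.76. In TPM, Ooep was lower in KO without overlap at GV, with 8177 and 5945 in WT and 5176 and 4308 in KO. Tle6, Padi6 and Zbed3 were higher in KO without overlap at GV in scaled counts, 3 of 7 members against 42.2% of all genes.

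The GV changes of those 3 members were all under the 2-fold minimum. Tle6 had 17052 and 13369 scaled counts in WT and 18166 and 22998 in KO, with a log2 fold change of 0.44 ± 0.21 (adjusted p = 0.333). Padi6 had 43161 and 39368 in WT and 44582 and 43475 in KO, with 0.09 ± 0.15 (adjusted p = 0.797), and with TMM scaling the sign turned to -0.25. Zbed3 had 24603 and 26356 in WT and 36022 and 31881 in KO, with 0.41 ± 0.16 (adjusted p = 0.255). The median of all genes at GV was 0.36, so none of the 3 stood far from it. Over all stages the log2 fold change was 0.79 ± 0.30 for Tle6 (adjusted p = 0.177) and 0.81 ± 0.33 for Padi6 (adjusted p = 0.208).

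Nlrp5 and Khdc3, both of the core, overlapped between the genotypes at every stage in spike-in scaled counts, but not at every stage in TPM. Nlrp5 GV libraries had 39456 and 45876 scaled counts in WT and 42583 and 32298 in KO. The GVBD values were 43353 and 29011 against 42804 and 35198, and the MII values 28761 and 16363 against 36685 and 24886. The WT and KO ranges crossed each time. As shares of the library, Nlrp5 was lower in KO without overlap at GV and GVBD, and overlapped at MII. Its GV libraries had 358 and 440 TPM in WT and 331 and 284 TPM in KO. Its GVBD libraries had 374 and 375 TPM in WT and 356 and 365 TPM in KO. Khdc3 GV libraries had 24552 and 5975 scaled counts in WT and 8286 and 8000 in KO. The GVBD values were 18985 and 6140 against 7033 and 5699, and the MII values 6685 and 1099 against 7333 and 2099. In TPM, Khdc3 was lower in KO without overlap at GVBD alone, with 388 and 188 in WT and 138 and 140 in KO. Overlap in TPM was not counted over all genes. In scaled counts the 2 libraries of a group differed up to 6.08-fold for Khdc3 and at most 1.76-fold for Nlrp5. The Khdc3 log2 fold change of KO against WT at GV was -1.59 when the second WT GV library was left out and 0.45 when the first was. An annotated gene, Gm20509, overlaps Khdc3 on the same strand.

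**Figure D3:**
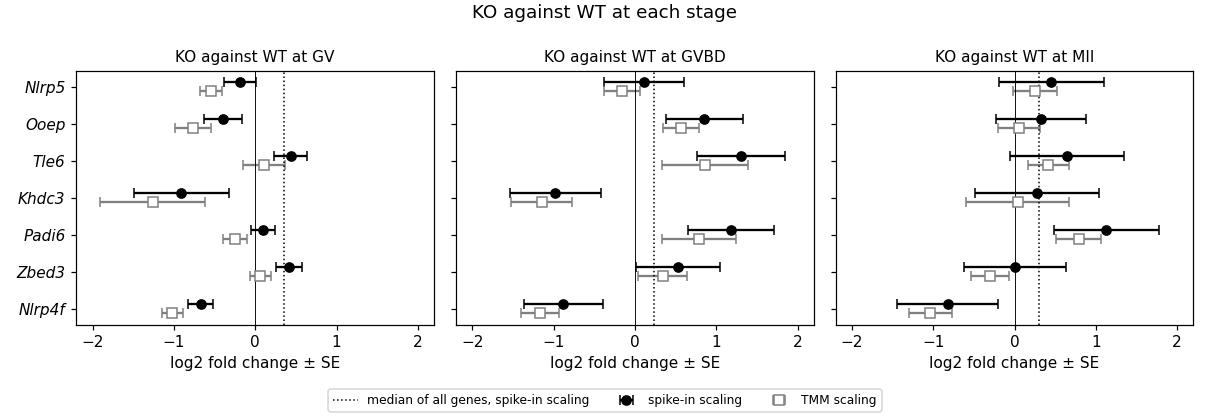
Log2 fold change of KO against WT (± SE) of the 7 genes at GV, GVBD and MII, with spike-in scaling as filled circles, TMM scaling as open squares and the median of all genes on the spike-in scale as a dotted line. Nlrp4f lies at -0.67, -0.88 and -0.82 on the spike-in scale, left of 0 at each stage and on both scales.

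The second question was how the transcripts changed when meiosis resumed. From GV to GVBD 0 of 7 members passed the threshold in WT, where 0.0511% of all genes did, and 0 of 7 in KO, where 0.22% did. Ooep was the member with the lowest log2 fold change in WT. Its WT scaled counts were 397713 and 273244 at GV and 139139 and 105228 at GVBD, with no overlap, and the log2 fold change was -1.46 ± 0.33 (adjusted p = 0.256). The difference passed the threshold with DESeq2 (adjusted p = 0.00810), as did 371 of 19566 genes. It also passed without the filter on low counts (adjusted p = 0.0425), as did 528 of 29407 genes. In KO, Ooep had 293346 and 216438 scaled counts at GV and 243209 and 198082 at GVBD, which overlapped. Whether the Ooep change from GV to GVBD differed between genotypes was not tested.

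Tle6 and Padi6 were the other members lower without overlap at GVBD in WT, and 19.3% of all genes were so. Their log2 fold changes were -0.66 ± 0.39 (adjusted p = 1.0) and -0.38 ± 0.32 (adjusted p = 1.0). In KO, Zbed3 was higher without overlap at GVBD by 0.51 ± 0.25 (adjusted p = 0.693), as 12.5% of genes were. Khdc3 and Nlrp4f were lower without overlap, by -0.36 ± 0.26 (adjusted p = 0.785) and -0.34 ± 0.26 (adjusted p = 0.790), as 28.1% of genes were. In KO the 2 libraries of a group differed 1.04-fold at GV and 1.23-fold at GVBD for Khdc3. For Nlrp4f they differed 1.15-fold and 1.09-fold.

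From GV to MII in WT oocytes Ooep, Khdc3 and Padi6 fell on the spike-in scale. These 3 of 7 members compare with 30.9% of all genes called and 30.5% called lower, so the members' share is near that of the transcriptome. WT Ooep went from 397713 and 273244 scaled counts at GV to 115975 and 78662 at MII, a log2 fold change of -1.79 ± 0.40 (adjusted p = 6.28e-05). WT Padi6 went from 43161 and 39368 to 24699 and 12589, a log2 fold change of -1.15 ± 0.44 (adjusted p = 0.0328). WT Khdc3 went from 24552 and 5975 to 6685 and 1099, a log2 fold change of -1.97 ± 0.48 (adjusted p = 0.000274). The Ooep and Padi6 groups did not overlap, but the Khdc3 groups did. Without the first WT GV library the log2 fold changes were -1.49 for Ooep, -0.62 for Khdc3 and -1.08 for Padi6. With each library left out in turn, they ran from -2.09 to -1.49 for Ooep and from -3.80 to -0.62 for Khdc3. For Padi6 they ran from -1.71 to -0.74. Which members passed the threshold changed with the library left out. DESeq2 did not call Khdc3 (adjusted p = 0.305), and without the filter on low counts Padi6 was not called (adjusted p = 0.0753).

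The other members kept more of their spike-in scaled counts in WT. Nlrp5 and Tle6 were lower at MII without overlap, with log2 fold changes of -0.92 ± 0.44 (adjusted p = 0.0976) and -0.73 ± 0.46 (adjusted p = 0.239). With Ooep and Padi6 this made 4 of 7 members lower without overlap, beside 58% of all genes. WT Zbed3 had 24603 and 26356 scaled counts at GV and 42712 and 25981 at MII, a log2 fold change of 0.43 ± 0.44 (adjusted p = 0.518). WT Nlrp4f had 59327 and 55650 at GV and 68266 and 38861 at MII, a log2 fold change of -0.10 ± 0.42 (adjusted p = 0.901). For both genes the groups overlapped, while the median log2 fold change of all genes was -1.06.

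Relative to the rest of the transcriptome, Zbed3 and Nlrp4f took a larger share at MII in WT. Zbed3 had 485 and 549 TPM at GV and 1457 and 1346 TPM at MII, and the Nlrp4f shares given above separate in the same way. With TMM scaling, which moved the median of all genes from -1.06 to -0.14, Zbed3 rose by 1.34 ± 0.17 (adjusted p = 0.00482) and was called, as 24.7% of genes were. On that scale Nlrp4f was higher by 0.79 ± 0.19 (adjusted p = 0.0274), under the 2-fold minimum, and Ooep, Khdc3 and Padi6 were no longer called, at -0.87 (adjusted p = 0.0598), -1.29 (0.310) and -0.27 (0.379). The called genes of the whole table divided into 74 higher and 5747 lower with spike-ins and 1593 higher and 3053 lower with TMM. Zbed3 and Nlrp4f, the members with the highest WT values on both scales, are the 2 whose 3′ UTR holds the polyadenylation element printed above. The element was searched with these values known, so the match is a description only. The 3′ UTR of 61.0% of genes holds these letters, and their part in the values was not tested.

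Over the transcriptome the same letters went with higher MII shares. Among genes with a 3′ UTR of at least 150 bases, 2518 (26.2%) held TTTTAT or TTTTAAT in the last 150 bases. This is a narrower region than the whole 3′ UTR searched for the members. The median log2 ratio of MII over GV in CPM (counts scaled to the library total, pseudocount 1) of these 2518 genes was 0.33 in WT and 0.12 in KO. The 7078 without it had medians of -0.14 in WT and -0.29 in KO. The quartiles of both sets overlapped widely, from -0.36 to 0.78 with the element and from -0.95 to 0.49 without it in WT. On this CPM scale Zbed3 had 1.17 in WT and 0.71 in KO, and Nlrp4f 0.63 in WT and 0.49 in KO. The 5 members without the element lay between -1.36 and -0.024 in WT. Of these, Nlrp5 and Tle6 have a 3′ UTR under 150 bases and so belong to neither gene set. Padi6 and Khdc3 also have a short one, and the sets were not matched for 3′ UTR length. In KO, Padi6 at 0.53 and Nlrp5 at 0.47 were level with Nlrp4f, so the members with and without the element were not separated there. The methods of the study describe reverse transcription of polyadenylated RNA, so a longer tail and more RNA cannot be told apart in these counts.

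**Figure D4:**
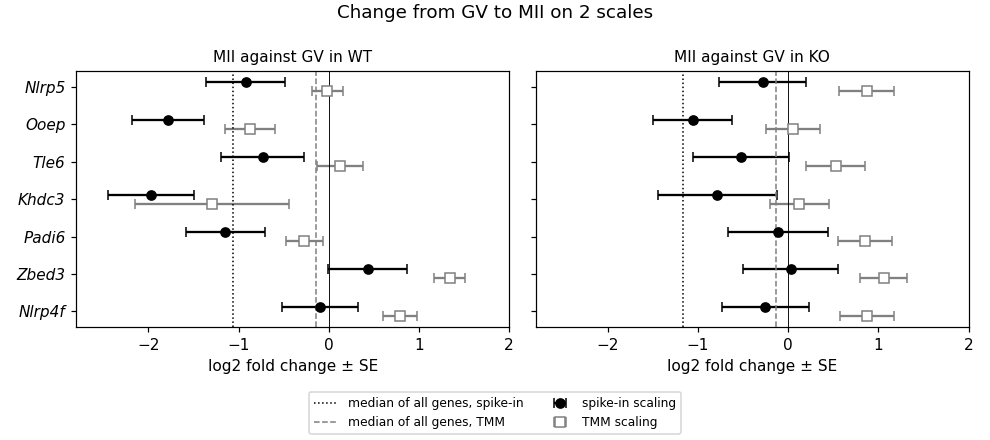
Log2 fold change of MII against GV (± SE) of the 7 genes in WT and in KO, with spike-in scaling as filled circles, TMM scaling as open squares, and the medians of all genes as a dotted (spike-in) and a dashed (TMM) line. In WT, Zbed3 at 0.43 and 1.34 and Nlrp4f at -0.10 and 0.79 lie to the right of the other members on both scales.

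In KO oocytes 0 of 7 members were called between GV and MII, where 3.28% of all genes were. Ooep scaled counts in KO were 293346 and 216438 at GV and 155222 and 89114 at MII, a log2 fold change of -1.06 ± 0.44 (adjusted p = 0.171). Khdc3 scaled counts were 8286 and 8000 at GV and 7333 and 2099 at MII, a log2 fold change of -0.79 ± 0.66 (adjusted p = 0.488). These were the 2 members lower without overlap, beside 61.4% of all genes, and on the TMM scale both values turned slightly positive. The log2 fold change was 0.03 ± 0.52 for Zbed3 (adjusted p = 0.982) and -0.25 ± 0.48 for Nlrp4f (adjusted p = 0.779). Padi6 had 44582 and 43475 scaled counts at GV and 60192 and 21367 at MII, so its MII libraries lay on either side of GV. Without the first KO MII library, which had the higher endogenous count per ERCC count of the pair (87.9 against 54.7), Ooep, Tle6, Khdc3 and Padi6 were called lower, together with 11075 genes in all. That fit holds 1 MII library, assumed to vary like the GV group.

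The median of the members was 0.14 above that of all genes in WT and 0.89 above it in KO on the spike-in scale, and 0.12 and 0.99 above it with TMM. Whether the genotypes differed in how transcripts changed from GV to MII was tested directly, as an interaction. Of 20807 genes, 0 passed (0%), with 5.75% at an unadjusted p under 0.05 and 146 genes called by DESeq2. No member passed in either tool, and 0 of 7 had an unadjusted p under 0.05 in edgeR. The difference (KO minus WT) was 0.72 ± 0.58 for Ooep, 1.18 ± 1.20 for Khdc3 and 1.04 ± 0.73 for Padi6, each with an adjusted p of 1.0. The 95% interval for Ooep, from -0.54 to 1.99, holds differences of 2-fold and more, so the calls made in WT and not in KO do not show that these transcripts changed differently.

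Tle6 and Padi6 varied together more than any other pair of members. Over the 12 libraries, Pearson's r of log2 TMM-scaled counts (pseudocount 0.5) for the 21 pairs ran from -0.35 to 0.82 with a median of 0.16. The highest was that of Tle6 and Padi6, which shared their high first KO GVBD library, and the next was that of Nlrp5 and Nlrp4f at 0.60. On the spike-in scale the median was 0.45 and the highest value, again for Tle6 and Padi6, 0.91, and all genes of a library share its ERCC total there. The libraries fall into stages and genotypes, so these values describe the groups as much as the genes.

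For each member the gene with the most similar TMM-scaled pattern was sought among 5312 named genes averaging 500 counts or more. It was Calr3, a germ cell calreticulin, for Nlrp5 (r = 0.90), Tmem9 for Ooep (r = 0.95), Kpna7, an oocyte importin, for Tle6 (r = 0.92) and Iqcg for Khdc3 (r = 0.88). For Padi6 it was Axin1, a scaffold of Wnt signalling (r = 0.89), which ZBED3 is known to bind. For Zbed3 it was Api5 (r = 0.98) and for Nlrp4f Slc25a5, a mitochondrial ADP/ATP carrier (r = 0.98). No member was the closest gene of another.

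The genes of 5 proteins known to bind the complex or to be stored with it were read beside the members. Nlrp2, Nlrp14, Uhrf1, Ube2d3 and Cfl1 were all tested, and 0 of 5 were called in any of the 9 comparisons. The share of all genes called in these comparisons ran from 0% for the interaction to 30.9% for MII against GV in WT. Nlrp14, the NOD-like receptor that protects UHRF1, had the highest level, with 1206 and 1245 TPM in WT GV and 1214 and 1341 TPM in KO GV. The median log2 fold change of the 5 was -0.51 from GV to MII in WT and -0.21 in KO, beside medians of all genes of -1.06 and -1.17.

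Of 20 paralogs of the members, 19 were found in the table. Those of Tle6 and Padi6 were nearly silent, with Tle1 to Tle4, Aes and Padi1 to Padi4 reaching at most 5.19 TPM in any library, and Nlrp4d was at 0 in all. Dppa5a, a KH-domain relative of Ooep and Khdc3 best known from pluripotent cells, was of the same order as Ooep per length, with 5180 and 6045 TPM in WT GV. It had 61481 and 57043 counts in WT GV and 27702 and 26767 in WT MII, and 63260 and 72437 counts in KO GV and 103833 and 86694 in KO MII. Its log2 fold change of KO against WT at MII was 2.25 ± 0.63 (adjusted p = 0.0465). This was the 1 call among the 14 paralogs tested there, where 0.803% of all genes were called. From GV to MII in WT it fell by 2.13 ± 0.44 on the log2 scale (adjusted p = 1.58e-05), and in KO the log2 fold change was -0.32 ± 0.45 (adjusted p = 0.696). The interaction did not pass at 1.81 ± 0.60 (adjusted p = 0.598). With TMM scaling the log2 fold change at MII was still 2.01, with an adjusted p of 0.0648 that missed the threshold. The MII shares were 2716 and 2409 TPM in WT and 9987 and 9093 TPM in KO.

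The other paralogs called from GV to MII in WT were of low level. With Dppa5a they made 3 of the 16 tested, beside 30.9% of all genes. Zbed5 had 454 and 139 raw counts at GV and 137 and 162 at MII. Its log2 fold change was -1.97 ± 0.60 (adjusted p = 0.00507), and it was not called with TMM scaling (adjusted p = 0.203). Padi1 had 30 and 20 raw counts at GV and 0 at MII in both libraries. In KO 0 of the 16 paralogs tested were called between these stages, where 3.28% of all genes were.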

How the data were processed

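The table deposited by the authors gives raw counts of 12 libraries, not normalized. By the methods of the study, polyadenylated RNA was reverse transcribed with ERCC RNAs added, cDNA was amplified by PCR, and Cutadapt-trimmed reads were placed on GRCm38 plus ERCC sequences by Hisat2, with unique alignments kept. The submitters' processing notes name cutadapt 1.9, HISAT2 2.0.4, StringTie 1.3.4d, DESeq2 and edgeR. The protocol in the sample descriptions is a bulk preparation instead, so which was used is not settled. Use of strand is not settled either. The bulk protocol names dUTP, a step that keeps strand, while the methods of the study do not state strand for these libraries. Without molecular identifiers, counts are not independent molecules.

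Each comparison was fitted to its own libraries over the whole table with edgeR 4.0.16 (glmQLFit, glmQLFTest, R 4.3.3), with library sizes in proportion to ERCC counts and genes kept by filterByExpr. Tests were two-sided, with Benjamini-Hochberg adjustment over all tested genes. A gene was called at an adjusted p under 0.05 and an absolute log2 fold change of at least 1. Standard errors come from the fold change and the F statistic. Fold changes are printed where the groups did not overlap, where the gene was called, or where the text asks for them. TPM used the union of GENCODE M21 exons. Alternatives were TMM, median-of-ratios scaling, no filter, DESeq2 1.42.0, 1 model of 12 libraries, no fold minimum, a replicate block, and fits with each library left out in turn. The script was tested on simulated data. The members and lists were chosen with earlier results of these data known. Whether libraries came from separate animals is not stated in the labels, so p-values measure the spread between these pools.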

Additional observations from a re-analysis of the deposited data

How the results depend on the processing

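With 2 libraries a group, a single library can decide a call, and the number of molecules behind the counts is unknown. Of 231 fold changes compared under 7 other settings, 200 kept direction and side of the threshold, 10 lost the call, 7 gained it and 14 changed sign. The setting without a fold minimum used the same fit, so its 33 fold changes could not change sign. The sign changes came with TMM scaling, median-of-ratios scaling and the replicate block, as listed below. The cause of these changes was not tested. Members called from GV to GVBD in WT went from 0 to 1 (Ooep) with no filter, with DESeq2 and with the replicate block (log2 fold change -1.45, adjusted p = 0.0128). All genes called there went from 10 to 528, 371 and 182 in these settings. From GV to MII in WT the 3 members called became 1 with TMM or median-of-ratios scaling (Zbed3) and 1 in the model of all 12 libraries (Ooep). Over all stages 0 became 1 (Nlrp4f) with TMM or median-of-ratios scaling. With 1 library left out, members called ranged from 0 to 1 for KO against WT at GV and for GVBD against GV in KO, and from 0 to 4 for MII against GV in either genotype.

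Signs turned with TMM and median-of-ratios scaling for Padi6 at GV (both -0.25), for Tle6 (0.13 and 0.17) and Nlrp4f (0.79 and 0.84) from GV to MII in WT, and for Ooep (0.051 and 0.080), Khdc3 (0.12 and 0.14) and Nlrp4f (0.88 and 0.91) from GV to MII in KO. Nlrp5 turned from GV to MII in WT with median-of-ratios scaling (0.031). With 1 library left out, Nlrp4f ranged from -0.56 to 0.25 in WT and from -0.60 to 0.025 in KO between GV and MII, Zbed3 from -0.66 to 0.49 in KO, and the Khdc3 interaction from -0.17 to 3.01.

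The labels do not say what a replicate number stands for. Correlations of same-numbered deviations ran from -0.24 to 0.14 over 7 pairs of groups, but endogenous counts per ERCC count were lower in the second library of all 6 groups, so the numbers may carry a shared difference. With the replicate block, Zbed3 from GV to MII in KO turned to -0.083 and the adjusted p of Nlrp4f over all stages was 0.0237 at -0.78, under the fold minimum. The block changed all genes called from 10 to 182 for GVBD against GV in WT, from 616 to 2462 for MII against GV in KO and from 278 to 673 over all stages, and lowered them to 0 at GV, 214 at GVBD and 4 at MII. Over the 7 settings, genes called ranged from 0 to 676 at GV, 12 to 953 at GVBD, 2 to 346 at MII, 0 to 346 for the interaction and 278 to 1356 over all stages. The order of the members by level per length was the same in the 3 WT groups with the longest transcript in place of the exon union, and 3, 2 and 4 members changed rank in KO GV, GVBD and MII.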
